A study of Mus musculus with 37 samples.

Results

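Psip1, Pogz, Men1 and Kmt2a are 4 genes of chromatin proteins that either bind the product of Cdca7l or bind a protein that does. They are 4 of the 18194 genes named on the array. Every probe set annotated to one of them, under a current or an older symbol, was taken, which gave 12 of the 45101 probe sets in the table: 3 of Psip1, 4 of Pogz, 3 of Men1 and 2 of Kmt2a. They were followed over 37 arrays, 1 for each culture of mouse astrocytes. The donors were newborn males and females of 2 inbred strains, 129S4/SvJae (129) and C57BL/6J (B6). Their astrocytes were nucleofected with a pcDNA3.1-hygro plasmid that carried CDCA7L (Cdca7l cultures) or with the empty plasmid (vector cultures), and were grown as stable transfectants in serum-containing DMEM. The 129 females gave 4 Cdca7l and 4 vector cultures, the 129 males 5 and 5, the B6 females 4 and 5, and the B6 males 5 and 5. Per the design text the isolates were independent biological replicates, and each carries a clone label, 15 of which occur under both plasmids. Every group went through plasmid transfection, and pcDNA3.1 plasmids use a cytomegalovirus promoter, which is not particular to astrocytes.

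Psip1 encodes LEDGF/p75, a protein that binds nucleosomes marked by methylation of histone H3 at lysine 36 through its PWWP domain and holds other proteins on chromatin through an integrase-binding domain. CDCA7L, known earlier as JPO2 and as a MYC-interacting protein, binds that domain, and so does POGZ, a zinc-finger protein with a transposase-derived domain that also binds heterochromatin protein 1. Menin, the product of Men1, and MLL1, the histone H3 lysine 4 methyltransferase encoded by Kmt2a, bind LEDGF/p75 together, and in leukaemia this assembly holds MLL fusion proteins at their target genes. POGZ and KMT2A are also known for neurodevelopmental syndromes in people.

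The deposited values are log2 signals, and the level that stood for background was the median of the table, 3.19. A probe set entered the tests when it lay above that level on at least 4 arrays, which 25579 probe sets did. Of the 12 studied here 9 passed: all 3 of Psip1, both of Kmt2a, 1 of Men1 and 3 of Pogz. A difference was called when its limma adjusted p was under 0.05, adjusted over all tested probe sets. Signals of different probe sets are not on 1 scale, so that levels were compared between groups and never between genes. Of the astrocyte markers Gfap lay at 10.02 to 13.97 and Aqp4 at 11.33 to 14.50 over the 37 arrays, while Gjb6 was above background on 3 arrays and S100b on 13. A pair of arrays stood apart and stay in the values unless stated. The array 129 female vector 1(3) had an upper quartile of 8.36, against 9.03 to 9.51 on the others. The array labelled B6 female vector 5.1(1) had 2.40 for Xist, against 10.71 to 12.20 on the 16 other female arrays, and 11.91 for the Y-linked gene Eif2s3y, within the 11.73 to 12.71 of the male arrays. In such cultures fewer cells of a type and less RNA per cell cannot be told apart.

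Cdca7l itself was far higher in the cultures that received it. Its probe set 1451306_at averaged 12.36 ± 1.48 in Cdca7l and 7.62 ± 2.81 in vector cultures of 129 females (SD, n = 4 and 4), and 12.40 ± 0.40 in Cdca7l and 8.53 ± 0.56 in vector cultures of 129 males (SD, n = 5 and 5). It averaged 13.07 ± 0.97 in Cdca7l and 7.98 ± 0.79 in vector cultures of B6 females (SD, n = 4 and 5), and 12.46 ± 1.71 in Cdca7l and 7.72 ± 2.04 in vector cultures of B6 males (SD, n = 5 and 5). In each strain and sex every Cdca7l culture lay above every vector culture, and in all 15 pairs of the same clone label the Cdca7l culture was higher. The mean difference over the 4 strain and sex groups was 4.61 ± 0.484 (log2 ± SE, limma adjusted p = 1.25e-06), or 24.5-fold. With clone labels as a fixed block its limma adjusted p was 0.0688. The deposited table does not say whether this probe set reads the plasmid's transcript, the cells' own transcript or both.

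None of the 4 genes passed the test for a change with Cdca7l. Over the 4 strain and sex groups, Kmt2a 1427283_at lay at 0.40 ± 0.224 (Cdca7l minus vector, log2 ± SE), Psip1 1417166_at at 0.25 ± 0.154, Men1 1416347_at at 0.09 ± 0.133 and Pogz 1455046_a_at at 0.08 ± 0.076, each with a limma adjusted p of 0.999. None of the 9 probe sets was called in that comparison, in which 0.00782% of all tested probe sets were called. Those were Cdca7l (4.61 ± 0.484) and a probe set of the dynein gene Dnah11 (4.73 ± 0.461). Whether this Dnah11 probe set reads RNA other than that of Cdca7l was not tested. At an unadjusted p under 0.05 the members' count was also 0, beside 1.27% of all probe sets. Across all 63 comparisons that involve the plasmid (the mean, the 4 strain and sex groups and both interactions, for 9 probe sets), a limma adjusted p under 0.05 occurred in 0, and an unadjusted one in 1. The 95% intervals, from the fit without a block, bound the mean difference over the groups for each probe set. For the brightest ones they ran from -0.06 to 0.57 for Psip1 1417166_at and from -0.07 to 0.24 for Pogz 1455046_a_at. They ran from -0.18 to 0.36 for Men1 1416347_at and from -0.05 to 0.86 for Kmt2a 1427283_at. For Psip1 1442148_at the interval was wider, from -0.07 to 1.08. Within a strain and sex the intervals were wider still, such as 0.03 to 1.88 for Kmt2a 1452377_at in 129 females.

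**Figure D1:**
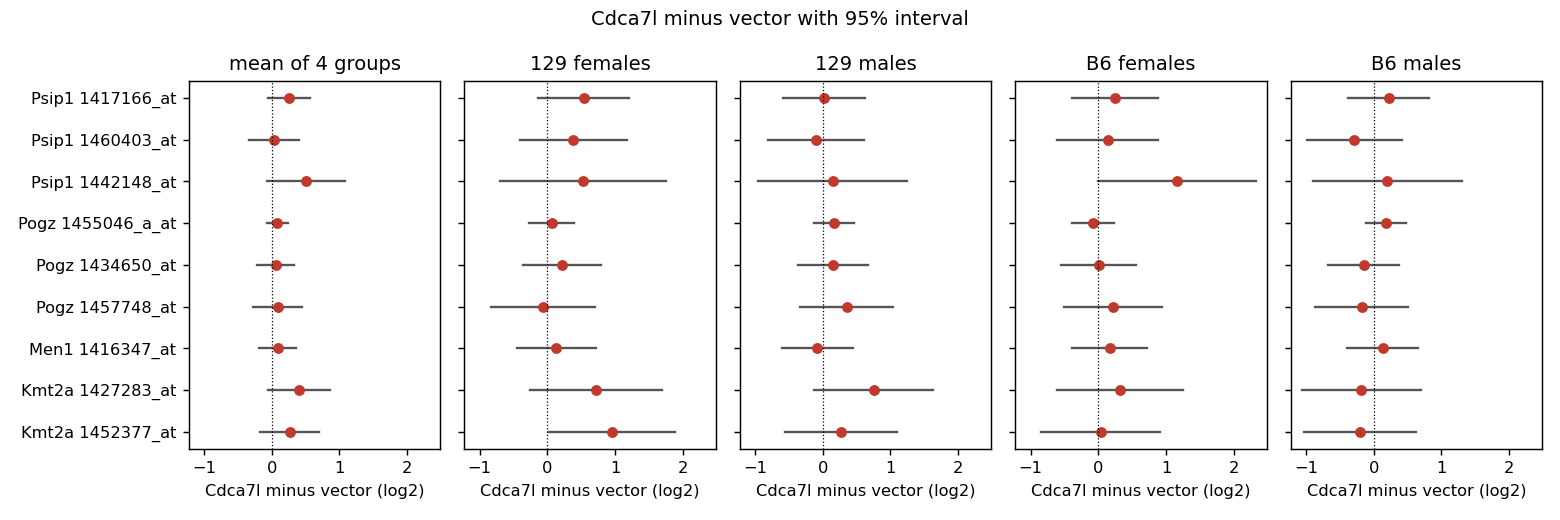
Difference between Cdca7l and vector cultures (log2, horizontal axis) for each tested probe set of the 4 genes, as the mean of the strain and sex groups and within each. Points are limma estimates and bars their 95% intervals. In the mean of the groups every bar crosses 0, and Pogz 1455046_a_at has the narrowest, from -0.07 to 0.24.

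Psip1, the adaptor itself, was lower in 129 than in B6 cultures by its brightest probe set and higher in 129 by another, 1442148_at. Psip1 1417166_at read 11.37, 11.81, 12.12 and 12.35 log2 in Cdca7l cultures of 129 females, against 9.99, 11.15, 11.97 and 12.37 in their vector cultures. It read 11.32, 11.44, 11.72, 11.74 and 11.86 log2 in Cdca7l cultures of 129 males, against 10.95, 11.66, 11.71, 11.76 and 11.93 in their vector cultures. The plasmid groups overlapped in both sexes of 129, and the low value of 9.99 belongs to 129 female vector 1(3), the array with the low upper quartile. Psip1 1417166_at read 11.78, 12.25, 12.43 and 12.59 log2 in Cdca7l cultures of B6 females, against 11.63, 11.67, 12.08, 12.27 and 12.45 in their vector cultures. It read 12.12, 12.14, 12.28, 12.39 and 12.41 log2 in Cdca7l cultures of B6 males, against 11.64, 11.77, 11.91, 12.18 and 12.73 in their vector cultures. Here too the plasmid groups overlapped. Within strain and sex the difference between Cdca7l and vector cultures was 0.54 ± 0.330 in 129 females, 0.01 ± 0.295 in 129 males, 0.24 ± 0.313 in B6 females and 0.22 ± 0.295 in B6 males (log2 ± SE), none past the limma threshold. Without 129 female vector 1(3) the difference in 129 females was 0.08. In 9 of the 15 clone pairs the Cdca7l culture was higher, and in B6 males it was higher in 4 of 4. The group means ran from 11.37 in 129 female vector cultures to 12.27 in B6 male Cdca7l cultures, with the 4 129 groups below the 4 B6 groups. All 7 neighbours in that order had overlapping ranges.

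**Figure D2:**
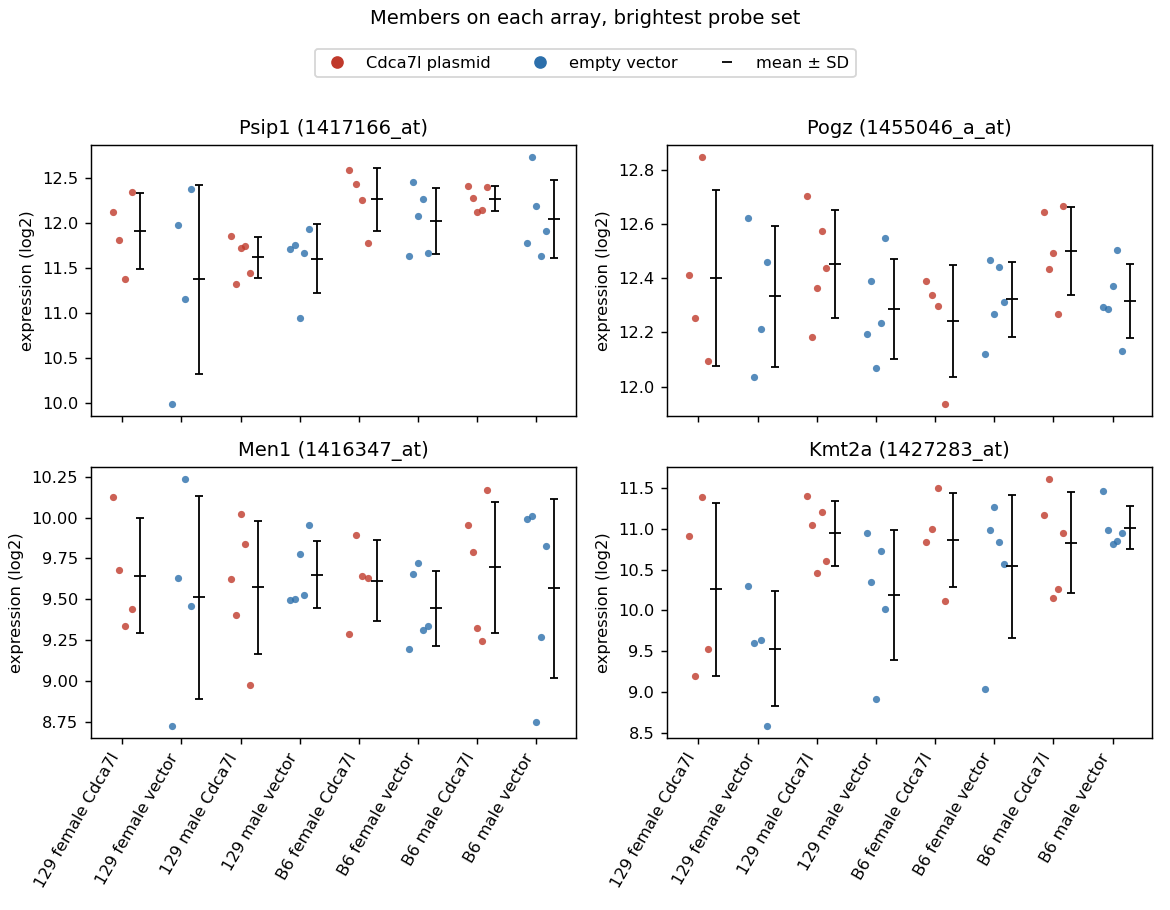
Level of the brightest probe set of Psip1, Pogz, Men1 and Kmt2a (log2 signal, vertical axis) on each of the 37 arrays, by strain, sex and plasmid. Points are arrays, and the bars beside them are the group mean ± SD. The 4 129 groups of Psip1 have means of 11.37 to 11.91 and the 4 B6 groups means of 12.02 to 12.27, while the ranges of Cdca7l and vector cultures overlap in every panel.

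The strain difference of Psip1 1417166_at was -0.52 ± 0.154 (129 minus B6, log2 ± SE, limma adjusted p = 0.0137). It averaged 11.62 ± 0.55 in 129 cultures and 12.14 ± 0.33 in B6 cultures (SD, n = 18 and 19), and the ranges overlapped. In the comparison of strains 25.2% of all tested probe sets were called, 10.6% as higher in 129 and 14.6% as lower, and 38.6% had an unadjusted p under 0.05, so that a call there is common. When clone labels were treated as a random block, 4249 probe sets were called, against 6456 without it, and both Psip1 calls held. Of the 9 probe sets of the 4 genes 2 were called, both of Psip1, and they went in opposite directions. Psip1 1460403_at lay at -0.37 ± 0.182 (limma adjusted p = 0.133), on the side of 1417166_at. Psip1 1442148_at was higher in 129 by 0.99 ± 0.282 (limma adjusted p = 0.0104). Both calls held under the 45 alternatives tried on the same probe set, 37 of which each left out 1 array. The separately named fits without each array that stood apart repeat fits among those 37. With array weights 1460403_at was called too (-0.24, limma adjusted p = 0.0371).

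The probe set that ran the other way was read on every array. Psip1 1442148_at read 9.97, 10.49, 10.68 and 11.63 log2 in Cdca7l cultures of 129 females, against 8.90, 10.52, 10.55 and 10.69 in their vector cultures. It read 10.11, 10.38, 10.85, 10.94 and 11.07 log2 in Cdca7l cultures of 129 males, against 9.64, 10.56, 10.68, 10.83 and 10.90 in their vector cultures. The lowest 129 values, 8.90 and 9.64, belonged to the vector arrays 129 female 1(3) and 129 male 3(3). Psip1 1442148_at read 9.54, 9.96, 10.21 and 10.39 log2 in Cdca7l cultures of B6 females, against 5.60, 9.01, 9.54, 10.07 and 10.11 in their vector cultures. It read 9.18, 9.69, 9.77, 9.84 and 9.98 log2 in Cdca7l cultures of B6 males, against 8.71, 9.16, 9.39, 9.62 and 10.57 in their vector cultures. A single vector array, B6 female 2.1(1), was far below the rest at 5.60. Over both plasmids 1442148_at averaged 10.52 ± 0.60 in 129 and 9.49 ± 1.06 in B6 cultures (SD, n = 18 and 19). Its plasmid difference over the 4 groups was 0.51 ± 0.282 (log2 ± SE, unadjusted p = 0.0812 in limma), and in B6 females 1.16 ± 0.572. Without the low array, one of those vector cultures, the mean difference was 0.30 and that in B6 females 0.34. Psip1 1460403_at averaged 10.40 ± 0.68 in 129 and 10.76 ± 0.31 in B6 cultures.

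To set the probe sets of Psip1 against each other, the signal of 1417166_at was subtracted from that of 1442148_at on each array, a comparison chosen after the values were seen, on probe sets picked for their opposite strain calls, so that it is a description with no test. The size of such a difference has no meaning across probe sets, and only its change between strains was compared. It was -1.10 ± 0.33 in 129 cultures (SD, n = 18, from -1.68 to -0.49) and -2.65 ± 0.86 in B6 cultures (SD, n = 19, from -6.03 to -2.01). All 18 arrays of 129 lay above the highest B6 array. Within sex and plasmid the strains differed by 1.63 in male Cdca7l cultures and by 1.47 in male vector cultures. In female vector cultures they differed by 1.95, and by 1.23 without the array B6 female vector 2.1(1), and in female Cdca7l cultures by 1.02. The same subtraction with 1460403_at gave strain differences of -0.02 to 0.37. That distance averaged -1.23 ± 0.31 in 129 and -1.38 ± 0.30 in B6 cultures, and the strains overlapped.

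**Figure D3:**
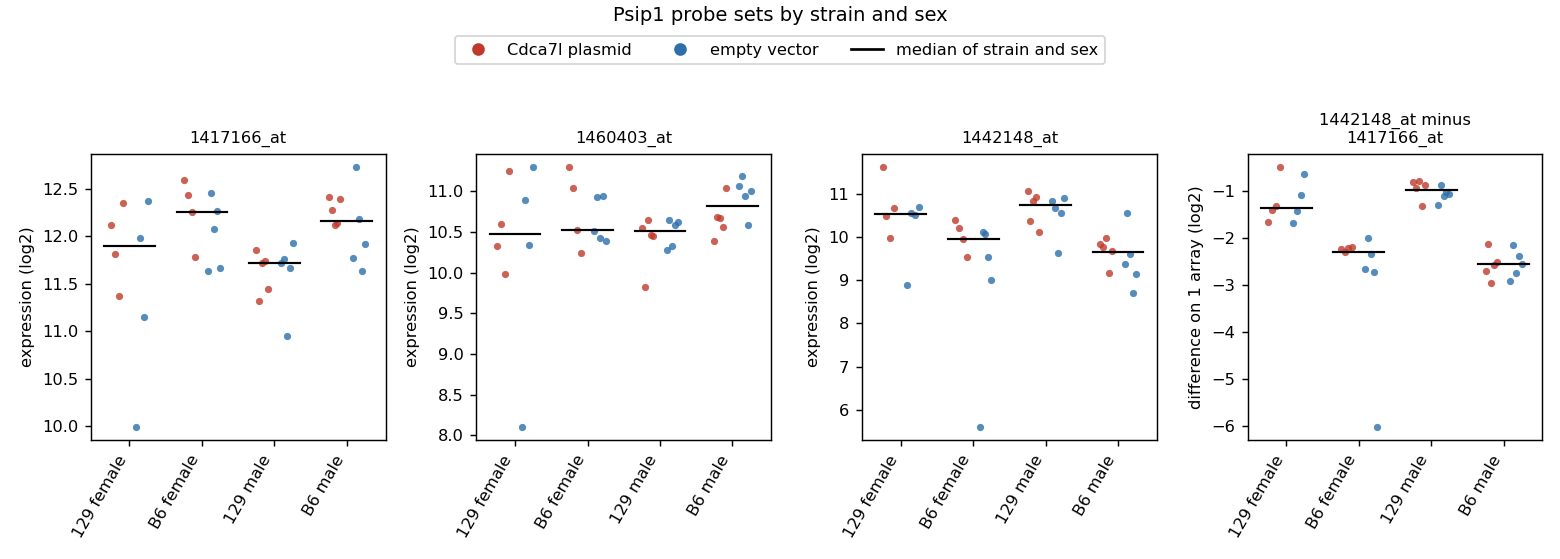
The 3 probe sets of Psip1 on each array (log2 signal, vertical axis) and, at the right, 1442148_at minus 1417166_at on the same array (log2), by strain and sex. Points are arrays coloured by plasmid, and lines are medians. In the panel at the right all 129 arrays lie between -1.68 and -0.49 and all B6 arrays between -6.03 and -2.01.

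In the GRCm38.p6 annotation of RefSeq, Psip1 on chromosome 4 overlaps Snapc3, which encodes a subunit of the complex that starts small nuclear RNA transcription. The files do not state the strand that a probe set reads. Of 4 Snapc3 probe sets tested 2 were higher in 129: 1453077_a_at by 1.65 ± 0.419 (log2 ± SE, limma adjusted p = 0.00484) and 1428760_at by 1.23 ± 0.238 (limma adjusted p = 0.000337). Snapc3 1457731_at lay at 0.27 ± 0.257 and 1428761_a_at at -0.06 ± 0.205. As deviations from the group means, Psip1 1442148_at correlated with Psip1 1417166_at at Pearson r = 0.65, a description chosen after values were seen. With Snapc3 it gave -0.21 for 1428760_at, -0.16 for 1453077_a_at, 0.29 for 1457731_at and 0.16 for 1428761_a_at. Whether Psip1 1442148_at reads Snapc3 RNA was not tested.

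Pogz, the heterochromatin-linked partner of LEDGF/p75, had the smallest spread of the 4 by its brightest probe set. Pogz 1455046_a_at spanned 11.94 to 12.85 over all 37 arrays, with an SD of 0.20, while Pogz 1434650_at had an SD of 0.39. Cdca7l cultures of 129 females ranged from 12.09 to 12.85, against 12.04 to 12.62 in vector cultures. In 129 males the ranges were 12.18 to 12.70 and 12.07 to 12.55 in Cdca7l and vector cultures. In all of these the plasmid groups overlapped. In B6 females Cdca7l cultures ranged from 11.94 to 12.39 and vector cultures from 12.12 to 12.47, and in B6 males 12.27 to 12.67 and 12.13 to 12.50. The group means ran from 12.24 in B6 female Cdca7l cultures to 12.50 in B6 male Cdca7l cultures, and all 7 neighbours in the order overlapped. The differences of Pogz 1455046_a_at were 0.02 ± 0.076 between strains (129 minus B6) and -0.06 ± 0.076 between sexes (female minus male, log2 ± SE), neither past the limma threshold. Pogz 1434650_at gave 0.05 ± 0.134 for the plasmid, 0.09 ± 0.134 for strain and -0.03 ± 0.134 for sex. The remaining Pogz probe sets were dim. Pogz 1457748_at was above background on 5 of 37 arrays and reached 4.74 on B6 female Cdca7l 4(5), and 1454827_at stayed between 2.12 and 2.58.

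Men1, the gene of menin, was read by 1 of its 3 probe sets. Men1 1416347_at averaged 9.65 ± 0.35 in Cdca7l and 9.51 ± 0.62 in vector cultures of 129 females (SD, n = 4 and 4), and 9.57 ± 0.41 in Cdca7l and 9.65 ± 0.21 in vector cultures of 129 males (SD, n = 5 and 5). It averaged 9.61 ± 0.25 in Cdca7l and 9.44 ± 0.23 in vector cultures of B6 females (SD, n = 4 and 5), and 9.70 ± 0.40 in Cdca7l and 9.57 ± 0.55 in vector cultures of B6 males (SD, n = 5 and 5). No group stood apart: the means ran from 9.44 in B6 female vector cultures to 9.70 in B6 male Cdca7l cultures, and all 7 neighbours in the order overlapped. Within strain and sex the plasmid difference of Men1 lay between -0.08 ± 0.255 in 129 males and 0.17 ± 0.271 in B6 females. The strain difference was 0.01 ± 0.133 (129 minus B6) and the sex difference -0.07 ± 0.133 (female minus male, log2 ± SE), neither past the limma threshold. The Cdca7l culture was higher in 8 of 15 clone pairs. Men1 1416348_at and 1443826_x_at were below background on every array, with highest values of 1.95 and 1.79.

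Kmt2a, the methyltransferase gene, had an SD of 0.77 over the 37 arrays by its brightest probe set, against 0.52 for Psip1, 0.37 for Men1 and 0.20 for Pogz. That order depends on the probe set. The SD was 0.80 for Kmt2a 1452377_at, 1.00 for Psip1 1442148_at, 0.55 for Psip1 1460403_at and 0.39 for Pogz 1434650_at. Kmt2a 1427283_at read 9.20, 9.53, 10.91 and 11.38 log2 in Cdca7l cultures of 129 females, against 8.59, 9.60, 9.64 and 10.30 in their vector cultures. It read 10.46, 10.60, 11.04, 11.20 and 11.40 log2 in Cdca7l cultures of 129 males, against 8.92, 10.01, 10.34, 10.72 and 10.95 in their vector cultures. In 129 females the vector values lay within the span of the Cdca7l values except for 8.59, from the array 129 female vector 4(1), and in 129 males the groups overlapped. Kmt2a 1427283_at read 10.11, 10.83, 11.00 and 11.49 log2 in Cdca7l cultures of B6 females, against 9.04, 10.57, 10.83, 10.99 and 11.26 in their vector cultures. It read 10.16, 10.27, 10.94, 11.17 and 11.61 log2 in Cdca7l cultures of B6 males, against 10.81, 10.85, 10.95, 10.99 and 11.47 in their vector cultures. In B6 the plasmid groups overlapped in both sexes. The plasmid difference was 0.72 ± 0.480 in 129 females, 0.75 ± 0.429 in 129 males, 0.32 ± 0.455 in B6 females and -0.18 ± 0.429 in B6 males (log2 ± SE), none past the limma threshold. The value in 129 females was 0.35 without the array 129 female Cdca7l 2(3), and that in 129 males 0.43 without 129 male vector 3(3). In B6 females it ran from -0.055 to 0.57 when each array was left out in turn. The difference of these effects between strains, 0.67 ± 0.449 (129 minus B6), did not pass either (limma unadjusted p = 0.146), in a comparison where 1.68% of all probe sets had an unadjusted p under 0.05 and 0% were called. In 9 of 15 clone pairs the Cdca7l culture was higher.

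The second Kmt2a probe set placed 129 females lowest. Kmt2a 1452377_at read 8.81, 9.50, 9.97 and 10.71 log2 in Cdca7l cultures of 129 females, against 7.71, 8.84, 9.23 and 9.40 in their vector cultures. It read 10.47, 10.55, 10.60, 10.76 and 11.26 log2 in Cdca7l cultures of 129 males, against 9.67, 10.37, 10.42, 10.75 and 11.08 in their vector cultures. All 4 vector values of 129 females lay below all those of 129 males, and 3 of their 4 Cdca7l values lay below all Cdca7l values of 129 males. The plasmid groups overlapped in both sexes of 129. Kmt2a 1452377_at read 8.50, 10.78, 10.80 and 10.83 log2 in Cdca7l cultures of B6 females, against 9.79, 10.00, 10.24, 10.35 and 10.56 in their vector cultures. It read 9.41, 9.47, 10.44, 10.62 and 11.11 log2 in Cdca7l cultures of B6 males, against 9.84, 10.28, 10.52, 10.54 and 10.88 in their vector cultures. In B6 the plasmid groups overlapped, with 8.50 far below the other B6 female Cdca7l values. The plasmid difference in 129 females, 0.96 ± 0.454 (log2 ± SE), was the one plasmid comparison of a member past an unadjusted p of 0.05 in limma, with a limma adjusted p of 1.00. It was 0.59 without 129 female vector 1(3) and 0.63 without 129 female Cdca7l 2(3). In that comparison 1.97% of all probe sets had such a p and 0% were called.

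With plasmids combined, Kmt2a 1452377_at averaged 9.27 ± 0.89 in 129 females, 10.59 ± 0.43 in 129 males, 10.20 ± 0.74 in B6 females and 10.31 ± 0.57 in B6 males (SD, n = 8, 10, 9 and 10). The sex difference was -0.71 ± 0.212 (female minus male, log2 ± SE) with a limma unadjusted p of 0.00206 and an adjusted p of 0.110. No probe set of the 4 genes was called in that comparison, in which 0.321% of all tested probe sets were called, 0.0508% as higher in females and 0.270% as lower (82 in all, or 19 when clones were a random block). The sex difference differed between strains by -1.22 ± 0.425 (129 minus B6, limma unadjusted p = 0.00735, adjusted p = 0.198), in a comparison where 15.3% of all probe sets had an unadjusted p under 0.05 and 0% were called. For Kmt2a 1452377_at this strain by sex difference was -1.04 without 129 female vector 1(3), and -1.21 when the B6 female vector culture of clone 5.1(1) was left out. Kmt2a 1427283_at gave -0.45 ± 0.224 for sex (limma adjusted p = 0.289) and -0.45 ± 0.449 for the difference between strains. With array weights both Kmt2a probe sets were called for sex, at -0.65 for 1452377_at (limma adjusted p = 0.000612) and -0.67 for 1427283_at (limma adjusted p = 0.00119), and for strain by sex, in fits that called 11621 and 10375 of all probe sets.

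The strain difference of Kmt2a 1427283_at, -0.58 ± 0.224 (129 minus B6, log2 ± SE), did not pass (limma adjusted p = 0.0554). It averaged 10.27 ± 0.86 in 129 and 10.81 ± 0.60 in B6 cultures (SD, n = 18 and 19). It passed under 13 of 46 alternatives, 10 of them among the 37 fits that each left out 1 array. Without 129 female vector 1(3), a fit counted both by name and among those 10, it was -0.64 (limma adjusted p = 0.0327). The highest adjusted p over these alternatives was 0.260, for the other probe set. Kmt2a 1452377_at lay at -0.33 ± 0.212. The group means of 1427283_at ran from 9.53 in 129 female vector cultures to 11.01 in B6 male vector cultures, and all 7 neighbours overlapped.

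**Figure D4:**
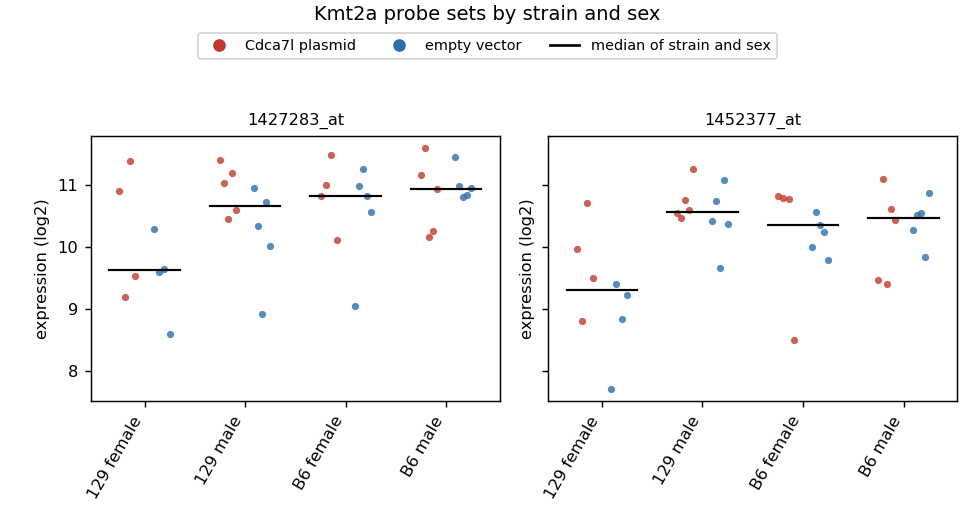
The Kmt2a probe sets 1427283_at and 1452377_at on each array (log2 signal, vertical axis), by strain and sex, coloured by plasmid. Lines are medians of strain and sex. By 1452377_at the 129 females average 9.27, below the means of 10.20 to 10.59 in the other strain and sex groups.

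Markers of other cells also differed between the strains, beside Psip1. All 6 fibroblast and meningeal markers were higher in 129 (median 2.88, 129 minus B6, 4 called), and all 9 tested astrocyte markers were lower (median -0.77, 4 called). The 3 tested ependymal markers were lower too (median -2.03, 2 called). For all 6 fibroblast and meningeal markers the strain difference was smaller in females than in males (median -2.71, 0 called). Their mean level ranged from 5.18 to 8.46 in 129 females and 6.39 to 12.67 in 129 males. In B6 females it ranged from 5.52 to 6.30 and in B6 males from 3.85 to 6.43. The 5 proliferation markers were higher in 129 (median 0.63, 2 called), as were 8 of 8 microglia and macrophage markers (median 0.67, 0 called). The mean level of the astrocyte list ranged from 7.43 to 11.28 on arrays of 129 females and from 9.36 to 11.43 on all others, and 129 females were the group with the low Kmt2a 1452377_at. With the plasmid, 8 of 8 microglia and macrophage markers were lower in Cdca7l cultures in the mean of the groups (median -0.93, 0 called). All 8 were lower in 129 females (median -0.25), 129 males (median -2.32) and B6 females (median -1.56), and all 8 were higher in B6 males (median 0.77). Of their defining genes Cx3cr1 and Itgam were below background on all arrays, while Cd68 and Fcer1g were above it on all 37. The rest were above background on 3 arrays (C1qa and Aif1) to 22 (Laptm5), and C1qb reached 12.04. What these cells contributed to the differences was not tested.

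No relation of the 4 genes to the Cdca7l level passed within either plasmid. Of 8 correlations between a member's brightest probe set and Cdca7l, computed within the 18 Cdca7l and the 19 vector arrays, 0 passed Benjamini-Hochberg adjustment. The smallest p was that of Men1 in vector arrays (Pearson r = 0.57, permutation p = 0.0123, adjusted 0.0981, Spearman rho = 0.35, permutation p = 0.148), and without the 2 arrays farthest from the median Cdca7l level r was -0.09, so that it rests on those arrays. Psip1 in vector arrays gave r = 0.50 (permutation p = 0.0339, adjusted 0.136, Spearman rho = 0.37, permutation p = 0.117), and 0.17 without 129 female vector 1(3). As deviations from the group means the vector arrays gave r = 0.60 for Psip1 and 0.56 for Men1 (each with an adjusted permutation p of 0.0504). In these vector arrays the Cdca7l level includes 4.20 and 4.12, far below the rest.

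Among the 4 genes Pogz and Kmt2a had the highest correlation. Over 37 arrays Pogz 1455046_a_at and Kmt2a 1427283_at correlated at Pearson r = 0.42 (permutation p = 0.0100, adjusted 0.0601 over 6 pairs) and Spearman rho = 0.36 (permutation p = 0.0275, adjusted 0.165), and at r = 0.38 without the 2 arrays farthest from the median. Deviations from the group means, which leave out strain, sex and plasmid, correlated at r = 0.50 (permutation p = 0.0019, adjusted 0.0114). Since 15 clone labels occur under both plasmids, the 37 arrays may not all be independent. With deviations averaged over the arrays of each clone label, an alternative added after the data were seen, r was 0.54 over 22 clones (permutation p = 0.00927, adjusted 0.0556) and Spearman rho 0.53 (permutation p = 0.0108, adjusted 0.0649). Of 12138 other genes 2.80% correlated with Pogz more closely than Kmt2a did, and 18.97% correlated with Kmt2a more closely than Pogz did. Psip1 and Men1 gave r = 0.30 (adjusted permutation p = 0.206), and 0.08 without 129 female vector 1(3). The other 4 pairs lay between -0.06 and 0.22. Psip1, the gene whose protein binds the products of the others, gave r = 0.01 with Pogz and 0.22 with Kmt2a. The probe sets of 1 gene correlated at r = 0.83 for Psip1 1417166_at and 1460403_at, 0.57 for Kmt2a and 0.21 for the brighter Pogz pair. With Psip1 1442148_at, 1417166_at gave r = 0.22 and 1460403_at 0.16, or 0.65 and 0.42 as deviations from the group means.

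Since Pogz and Kmt2a were the pair with the highest correlation, the 250 bases before their starts are shown, from RefSeq promoters on GRCm38.p6, read 5′ to 3′ on the gene's strand with each CpG in capitals. Each window precedes 1 annotated start: that of Pogz lies inside the gene's annotated span, before a start within it, and that of Kmt2a overlaps the first bases of the gene's span.
Pogz, chr3:94837187-94837436, plus strand: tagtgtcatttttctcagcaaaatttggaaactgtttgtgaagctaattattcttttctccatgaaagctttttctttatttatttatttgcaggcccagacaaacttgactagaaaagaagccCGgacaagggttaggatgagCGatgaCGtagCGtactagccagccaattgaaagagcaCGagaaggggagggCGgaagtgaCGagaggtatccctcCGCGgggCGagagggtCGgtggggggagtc
Kmt2a, chr9:44881290-44881539, minus strand: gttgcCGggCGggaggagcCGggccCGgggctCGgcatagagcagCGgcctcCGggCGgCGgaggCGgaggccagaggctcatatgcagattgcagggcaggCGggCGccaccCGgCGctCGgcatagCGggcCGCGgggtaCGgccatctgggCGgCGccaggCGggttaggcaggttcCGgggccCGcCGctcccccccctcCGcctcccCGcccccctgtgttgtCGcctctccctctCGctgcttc
The Kmt2a window holds 29 CpGs and is 76.8% G and C, and the Pogz window holds 11 CpGs and is 47.2% G and C. The median over 32851 such windows was 6 CpGs. The 3 windows of Men1 on chromosome 19 held 8, 10 and 9. The MYC-type E-box CACGTG, which reads the same on both strands, was in none of these 5 windows and in 6% of all windows of this length. An absent match says only that the letters are not in the window.

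Genes most like each member over the 37 arrays were named by Pearson r with its brightest probe set, as a description. For Psip1 they were Xpo1 (r = 0.85), the nuclear export receptor, Flvcr1 (0.85), a heme and choline transporter, and Dek (0.84), a chromatin protein. For Kmt2a they were Zfp148 (r = 0.92), a zinc-finger transcription factor, Acot1 (0.86), an acyl-CoA thioesterase, and Ctdsp2 (0.86), a phosphatase of RNA polymerase II. Men1 was most like Mettl14 (r = 0.76), a subunit of the RNA m6A methyltransferase, Ndrg3 (0.72) and Kctd15 (0.72). Pogz was most like the mitochondrial gene ND5 (r = 0.71), the nuclear matrix gene Matr3 (0.69) and the Mediator gene Med13l (0.68). The median r over all 12138 other genes was 0.09 for Psip1, -0.03 for Kmt2a, 0.12 for Men1 and -0.09 for Pogz. All arrays share strain, sex and overall signal differences, which enter these values.

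Other proteins of the same assemblies were taken as lists, chosen with earlier results of these data known. With Cdca7l, none of their genes passed the test apart from Cdca7l itself, which the list of proteins that bind the LEDGF/p75 integrase-binding domain contains. Counts and medians of the lists leave out Cdca7l and the 4 genes described above. Of the 4 other tested genes that bind this domain 3 were higher (median 0.02, Cdca7l minus vector), beside 54.4% of all genes (median 0.02). Of 18 MLL and COMPASS subunits, which write methylation at H3 lysine 4, 16 were higher (median 0.08), with Kansl1, of the NSL acetyltransferase complex, at 0.38 ± 0.218, the demethylase Kdm6a at 0.25 ± 0.155, Wdr82 at 0.19 ± 0.128 and Paxip1 at -0.14 ± 0.115 (log2 ± SE). Within groups, 16 of these 18 were higher in 129 females, 11 in 129 males, 10 in B6 females and 9 in B6 males. The medians were 0.25, 0.05, 0.01 and -0.01, beside 58.6%, 40.3%, 57% and 49.1% of all genes higher. The elongation factor Iws1 lay at 0.38 ± 0.190. Of 11 MLL fusion partners and elongation factors 9 were higher (median 0.06), with Mllt1 at 0.39 ± 0.258. Within groups, 9 of these 11 were higher in 129 females and 6 in each other group. Of 11 writers and readers of H3 lysine 36 methylation 8 were higher (median 0.07), with the methyltransferases Setd2 at 0.27 ± 0.140 and Nsd1 at 0.23 ± 0.127. Within groups, 9 of these 11 were higher in 129 females, 8 in 129 males, 6 in B6 females and 4 in B6 males. Of 11 POGZ partners 6 were higher (median 0.01), with the heterochromatin protein Cbx5 at 0.07 ± 0.073. Of 10 tested menin and MLL target genes, out of 18 on the array, 5 were higher (median -0.03). The cell cycle inhibitors Cdkn2c and Cdkn1b lay at 0.14 ± 0.175 and 0.11 ± 0.144. Of 5 menin partners 3 were higher (median 0.04), with Smad3 at 0.19 ± 0.096. Of 3 tested relatives of Psip1 in the HDGF family 2 were higher (median 0.12). Of the 2 genes whose products cleave MLL1 or bring it to degradation, Tasp1 and Skp2, Skp2 lay at -0.15 ± 0.404 and Tasp1 near 0.

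Between the strains every list held a called gene, beside calls on 25.2% of all probe sets. Of the proteins that bind LEDGF/p75, Iws1 was lower in 129, at 9.39 against 10.43 in B6 (difference -1.04 ± 0.190, limma adjusted p = 0.000164). Among the MLL and COMPASS subunits 1 of 18 was called higher and 3 lower. Hcfc2, a host cell factor, had the lowest difference, at 7.87 in 129 against 9.98 in B6 (-2.10 ± 0.218, limma adjusted p = 1.20e-08). Setd1b and Wdr82, subunits of another H3 lysine 4 methyltransferase, lay at -0.59 ± 0.141 and -0.42 ± 0.128, while Setd1a, the catalytic relative of Setd1b, lay at 0.22 ± 0.078 (limma adjusted p = 0.0384). In the HDGF family Hdgfl3 was lower (-0.96 ± 0.363, limma adjusted p = 0.0499), a call that held in 9 of 45 alternatives. Psip1, of the same family, was called lower by 1417166_at (-0.52 ± 0.154) and higher by 1442148_at (0.99 ± 0.282). Of the MLL fusion partners and elongation genes Mllt6 was lower (-0.99 ± 0.307) and Mllt3 and Ell2 were higher (0.45 ± 0.148 and 0.67 ± 0.236). Of 45 alternatives the call held in 26 for Setd1a, 31 for Ell2 and 44 each for Mllt3 and Wdr82.

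Of the menin and MLL target genes, 10 of the 18 on the array passed the filter and were tested, each by its brightest probe set. Of these 10, 2 were called higher in 129 and 3 lower, beside 10.6% and 14.6% of all tested probe sets. Meis1, a homeobox gene that MLL keeps active in leukaemia, was at 6.87 in 129 against 5.81 in B6 (1.06 ± 0.201, limma adjusted p = 0.000272). Cdkn1b, a cell cycle inhibitor gene that menin activates, was at 12.22 against 12.90 in B6 (-0.68 ± 0.144, limma adjusted p = 0.000959). Mef2c (-0.95 ± 0.280) and Meis2 (-0.51 ± 0.174) were also lower, and Ezh2, a methyltransferase of H3 lysine 27, was higher (0.81 ± 0.278). Skp2, which brings MLL1 to degradation in the cell cycle, was higher (1.24 ± 0.404, limma adjusted p = 0.0237). Among POGZ partners Trim28, a corepressor, was higher (0.38 ± 0.093) and Adnp2 lower (-0.40 ± 0.147), and of the menin partners Daxx, a histone chaperone gene, was higher (0.60 ± 0.162). The H3 lysine 36 readers split, with Brpf1 higher (0.65 ± 0.191) and Mbtd1 lower (-0.72 ± 0.176). Of 45 alternatives the call held in 20 for Adnp2, 34 for Ezh2 and 41 for Meis2. Between the sexes 1 gene of all these lists was called. Kdm6a, an X-linked H3 lysine 27 demethylase of the MLL3 and MLL4 complexes, was at 9.87 in females against 9.09 in males (0.78 ± 0.155, limma adjusted p = 0.0155), a call lost when clones were a random block (limma adjusted p = 0.145) and kept under the other 44 of 45 alternatives.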

How the data were processed

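Expression was measured on 1-colour Affymetrix mouse arrays, 1 for each of 37 cultures. The authors deposited log2 values made by GCRMA in Partek 6.5, per the submitters' processing notes, and these were used as deposited. Genes come from the platform annotation (34958 probe sets with 1 symbol, 932 with several, 9211 with none).

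The 64 control probe sets and 19458 that did not pass the filter were left out. limma 3.58.1 (R 4.3.3) was fitted to 8 group means (29 residual degrees of freedom), with 10 comparisons and Benjamini-Hochberg adjustment over the 25579 tested probe sets. The isolates are taken as replicates on the design text's word. Deviations of cultures with the same clone label correlated at 0.43 to 0.77 in B6 females, 0.38 to 0.57 in B6 males, 0.06 to 0.72 in 129 females and -0.09 to 0.62 in 129 males. The label was counted as a pairing where every such correlation was over 0.1, which held in B6. Clone 2(3) of 129 females gave 0.06 and clone 3(3) of 129 males -0.09. The other 129 pairs lay at 0.42 to 0.72. By this rule the label was not counted as a pairing in 129, and the main fit had no block in either strain. Its errors and p-values thus treat arrays of 1 clone label as independent, also in B6. The correlation within a label fitted for the random block was 0.41. With that block the strain calls went from 6456 to 4249 and the sex calls from 82 to 19. Correlations used 100000 permutations. The fit was tested on simulated data.

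Every member is named, with the 3 genes most like each. Members and lists were chosen with earlier results of these data known. The subtraction of Psip1 probe sets, the correlations between probe sets, the promoters shown and the fits without both arrays that stand apart were chosen after values were seen. Alternatives were another filter, quantile normalization, clone blocks, other variance priors, array weights, other probe sets and fewer arrays.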

Additional observations from a re-analysis of the deposited data

Results flagged for a closer look

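In each group the highest and lowest arrays of the 9 tested probe sets were compared with their neighbours by Dixon's 95% limit for a value far from the others. Of 72 groups 11 held such an array, where chance gives about 1 group in 20, or 3.6. The vector array 129 male 3(3) lay below the others in 2 probe sets of Psip1, at 10.95 for 1417166_at (others 11.66 to 11.93) and 9.64 for 1442148_at (others 10.56 to 10.90). Psip1 1442148_at was also low on the vector arrays 129 female 1(3), at 8.90 (others 10.52 to 10.69), and B6 female 2.1(1), at 5.60 (others 9.01 to 10.11). The remaining Psip1 array was 129 male Cdca7l 3(1), at 9.82 for 1460403_at (others 10.45 to 10.65).

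Kmt2a 1427283_at was high on B6 male vector 2(2), at 11.47 (others 10.81 to 10.99), and Kmt2a 1452377_at low on B6 female Cdca7l 6(3), at 8.50 (others 10.78 to 10.83). The other 4 were high values of the dim Pogz 1457748_at, which was above background on 5 of 37 arrays. It read 3.06 on 129 female Cdca7l 2(3) (others 2.49 to 2.54), 3.27 on 129 female vector 2(1) (others 2.45 to 2.56), 4.74 on B6 female Cdca7l 4(5) (others 2.43 to 2.46) and 3.75 on B6 male vector 4(3) (others 2.42 to 2.78).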

How the results depend on the processing

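The count of called probe sets for the mean plasmid difference stayed at 2 except with the fixed replicate block, where it was 1, and 0 of 1048 plasmid differences of a member under an alternative passed (lowest limma adjusted p = 0.0783). Member differences near 0 changed sign often, as listed here. None that did was called, apart from the strain difference read by Psip1 1442148_at. Both strain calls of Psip1 held under all 45 alternatives on the same probe set. Of the other probe sets Psip1 1460403_at gave -0.37 (limma adjusted p = 0.133), and Psip1 1442148_at 0.99. The strain difference of Kmt2a 1427283_at passed with array weights, without 129 female vector 1(3), without both arrays that stand apart and in 10 of 37 fits that each left out 1 array.

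Treating clone labels as a random replicate block gave counts of 1 in 129 females, 1 in B6 females and 4 in B6 males against 0 in each without it, 4249 for strain against 6456 and 19 for sex against 82. Every correlation between pair deviations was over 0.1 in B6, so the block counts there as a pairing. In 129 they ran from -0.09 to 0.72, with female clone 2(3) and male clone 3(3) under 0.1, so the block was not counted as a pairing there. The random block turned Psip1 for sex to -0.016. The fixed replicate block turned the sign of these: in B6 females Kmt2a -0.073 and for the mean plasmid difference Psip1 1460403_at -0.0065. The random block ended no call of a member, and it ended that of Kdm6a for sex (limma adjusted p = 0.145). The fixed block was fitted for the plasmid comparisons alone, in which no member was called, so it could not end a member's call. It ended that of Cdca7l (limma adjusted p = 0.0688).

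Array weights, estimated gene by gene after the default method had not converged, ran from 0.105 to 7.92 and moved most counts. The counts were 109 in 129 females, 1589 in 129 males, 51 in B6 females and 217 in B6 males, 14556 for strain, 11621 for sex, 2 for plasmid by sex, 267 for plasmid by strain and 10375 for strain by sex. Under them 8 member values were called that were not called without them: Kmt2a 1427283_at -0.84 for strain, -0.67 for sex and -1.18 for strain by sex, Kmt2a 1452377_at -0.56, -0.65 and -1.53, Pogz 1455046_a_at -0.15 for sex and Psip1 1460403_at -0.24 for strain (limma adjusted p = 4.26e-05 to 0.0371). The sign turned in these values: in 129 females Psip1 -0.036, Men1 -0.00052 and Kmt2a -0.082, in 129 males Psip1 -0.010 and Men1 0.066, in B6 males Men1 -0.050, for strain Pogz -0.046, Men1 -0.035 and Pogz 1434650_at -0.0077, for plasmid by sex Psip1 -0.016 and Kmt2a -0.22, for plasmid by strain Psip1 -0.36, for the mean plasmid difference Psip1 1460403_at -0.029 and Kmt2a 1452377_at -0.012 and for sex Psip1 1460403_at 0.11 and Psip1 1442148_at 0.044.

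Trend and robust priors gave 3 calls for strain by sex, against 0, and the 2 groups fitted alone gave 2 in 129 males. Quantile normalization turned these: in 129 females Men1 -0.064, for plasmid by sex Men1 -0.012, for plasmid by strain Psip1 -0.0038 and for the mean plasmid difference Psip1 1460403_at -0.018. Without 129 female vector 1(3) the counts were 1 in 129 males, 2 in B6 females and 2 in B6 males, and these turned: in 129 females Men1 -0.13, for strain Pogz -0.00017, for plasmid by sex Men1 -0.0050, for plasmid by strain Psip1 -0.18, for the mean plasmid difference Psip1 1460403_at -0.14 and for sex Psip1 1460403_at 0.074. Leaving out the B6 female vector array 5.1(1) gave 127 calls for sex and Psip1 -0.0071 there. Without both, an alternative added after the data were seen, sex had 260 calls and these turned: for sex Men1 0.0057 and Psip1 1460403_at 0.054 and for the mean plasmid difference Psip1 1460403_at -0.12. Another probe set turned the sign as follows. With 1460403_at Psip1 gave in 129 males -0.10, in B6 males -0.29 and for sex -0.098. With 1442148_at it gave for strain 0.99, for sex -0.16 and for plasmid by strain -0.34. With 1434650_at Pogz gave in B6 females 0.0069, in B6 males -0.15 and for plasmid by sex 0.11.

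Leaving out each array in turn gave 0 to 1 calls in 129 females, 129 males and B6 females, 0 to 3 in B6 males, 35 to 947 for sex and 0 to 411 for strain by sex. Both highest counts came without 129 female Cdca7l 1(3), and the lowest for sex without 129 female Cdca7l 4(1), and 13 of 37 arrays moved the sex count by over 1.5 times. The ranges of member values whose sign turned were as follows. In 129 females Pogz gave -0.081 to 0.17 and Men1 gave -0.13 to 0.37. For strain Pogz gave -0.013 to 0.050 and Men1 gave -0.046 to 0.080. For sex Psip1 gave -0.075 to 0.12, Psip1 1460403_at gave -0.19 to 0.074, Psip1 1442148_at gave -0.23 to 0.048 and Pogz 1434650_at gave -0.10 to 0.037. For plasmid by sex Men1 gave -0.0050 to 0.25. For plasmid by strain Psip1 gave -0.18 to 0.21 and Pogz gave -0.0096 to 0.12. For the mean plasmid difference Psip1 1460403_at gave -0.14 to 0.13. In B6 females Pogz gave -0.13 to 0.020 and Kmt2a gave -0.055 to 0.57. In 129 males Psip1 gave -0.15 to 0.096 and Men1 gave -0.19 to 0.070. In B6 males Men1 gave -0.076 to 0.24.

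Of the relations, that of Psip1 with Cdca7l in vector arrays went to 0.46 without the 2 farthest arrays and 0.17 without 129 female vector 1(3). That of Men1 went to -0.086 and 0.40, and that of Pogz to 0.47 and 0.22. As deviations from group means Psip1 gave -0.0038 with Pogz, 0.34 with Men1 and -0.025 with Kmt2a, and Pogz with Men1 gave 0.031 without 129 female vector 1(3). With deviations averaged by clone label, Psip1 with Kmt2a gave -0.050 and Pogz with Men1 0.27. The cause of these changes was not tested. The number of arrays, 4 or 5 a group, limits the precision, and dim Pogz 1457748_at was left out of these alternatives.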
